A study of Mus musculus with 6 samples.

Results

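The brush border digestive hydrolases are enzymes anchored in the apical membrane of enterocytes, the absorptive cells of the intestinal epithelium. They complete the digestion of sugars and peptides at the cell surface. A set of 10 genes was followed, namely the disaccharidase genes *Lct*, *Sis*, *Mgam* and *Treh*, the alkaline phosphatase gene *Alpi*, the exopeptidase genes *Anpep*, *Enpep* and *Dpp4*, and the meprin genes *Mep1a* and *Mep1b*. They were picked by gene symbol from the 19616 genes of the deposited count table, and every one of the 10 was found there once.

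RNA was sequenced from jejunal intestinal epithelial cells (IEC) released with EDTA, from 3 control mice, C1, C3 and C3-3, and 3 Hdac1/2-deleted mice, H1, H5 and H9, all 3 months old. The control mice were wild type. The Hdac1/2-deleted mice were Hdac1-/-; Hdac2-/- through villin-Cre, which acts in the epithelium of the intestine from development on, so the deletion is neither acute nor restricted to one epithelial cell type. Both groups came from a mixed C57BL/6J, 129SV and CD1 background. Each mouse gave 1 library.

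Lactase, sucrase-isomaltase, maltase-glucoamylase and trehalase split dietary sugars into monosaccharides, which transporters then carry into the enterocyte. Aminopeptidases, dipeptidyl peptidase 4 and meprins cut peptides at the same surface. Hydrolase transcription is a hallmark of enterocytes that have left the crypt, and it varies along the length of the gut, with age and with position on the villus. Factors of the HNF1, HNF4, CDX and GATA families are known to act on several of these promoters. HDAC1 and HDAC2 are class I histone deacetylases, which remove acetyl groups from histones and other proteins.

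Between 36111035 (H5) and 65902344 (C1) reads per mouse were counted on genes. Expression is given as CPM, that is counts scaled to library totals that were adjusted by TMM. At these depths 3 counts amounted to 0.0405 to 0.0790 CPM, a floor for counting error only that lies far below every hydrolase level. *Hdac1* stood at 39.1, 34.5 and 48.9 CPM in C1, C3 and C3-3 and at 3.97, 2.53 and 4.81 CPM in H1, H5 and H9. *Hdac2* was at 23.6 to 32.9 CPM in control and at 21.4 to 26.6 CPM in Hdac1/2-deleted IEC, a level that covers the whole gene and does not check the loss of single exons. The 6 general epithelial markers summed to 7057 to 8213 CPM in control and 6608 to 7925 CPM in Hdac1/2-deleted IEC, and these ranges overlap. Within that list *Krt18* was called higher (log2 fold change of 1.02, adjusted p of 0.00059, edgeR), while *Epcam* was lower without overlap but under the 2-fold limit (-0.62, adjusted p of 0.017, edgeR). In contrast, the sum of 5 Paneth cell markers was 3093 to 5006 CPM in control and 150.5 to 229.6 CPM in Hdac1/2-deleted IEC, and the 20 most abundant genes took 16.0% to 19.2% and 11.8% to 12.4% of the counts. Library C3 held 3082 counts on 4 Y-chromosome genes, against 1 to 13 in every other library, and that library belongs to the control group. *Xist* had 13 counts in C3 and from 2413 (H5) to 6883 (H9) in the other libraries. The labels give no sex, and the part of sex in the differences between the groups was not tested.

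The oligonucleotides the study used for qPCR of *Sis* and *Alpi* match the transcripts of their own gene only, among all annotated mouse transcripts. They are shown because *Alpi* has a close neighbour, *Akp3*, that moved with it. In the *Alpi* oligonucleotides capitals mark the bases that differ from the best match in *Akp3*, 3 in the forward and 6 in the reverse oligonucleotide.
Sis forward, exon 40, chr3:72908968-72908996: tcaagaaatcacaacattcaatttactag
Sis reverse, exon 41, chr3:72907173-72907199: ctaaaactttctttgacatttgagcaa
Alpi forward, exon 5, chr1:87100470-87100489: aggacatCgcCacTcaactc
Alpi reverse, exon 6, chr1:87100119-87100140: ggttccagActGGttaCTGtca

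Coordinates and exons are those of the GRCm38 build in GENCODE M21, and both genes lie on the minus strand. The same uniqueness held for the reads. No stretch of 100 bases, the length of 1 read, in the longest coding transcript of any of the 10 hydrolase genes or of *Akp3* occurred in an annotated transcript of another gene. *Treh*, *Anpep*, *Enpep*, *Dpp4* and *Mep1b* overlap another annotated gene in position, and whether the counting used the strand is not given in the sources used here, so a part of their counts could belong to the overlapping gene.

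The 180 bases upstream of the start site are shown for *Lct*, which was called lower, for *Sis*, a disaccharidase gene that was not called, and for *Alpi* and *Akp3*, which rose together. The sequences are from RefSeq for GRCm38.p6, written 5′ to 3′ on the strand of the gene. Capitals mark exact matches, on either strand, to 1 of 4 short motifs, namely CAAAGTCC for HNF4, GTTAAT for HNF1, TTTAT for CDX and GATAA for GATA factors.
Lct, minus strand, chr1:128328319-128328498: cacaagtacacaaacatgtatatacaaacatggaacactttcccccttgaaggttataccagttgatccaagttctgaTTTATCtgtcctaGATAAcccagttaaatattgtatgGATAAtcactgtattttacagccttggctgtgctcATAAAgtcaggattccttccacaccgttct
Sis, minus strand, chr3:72967864-72968043: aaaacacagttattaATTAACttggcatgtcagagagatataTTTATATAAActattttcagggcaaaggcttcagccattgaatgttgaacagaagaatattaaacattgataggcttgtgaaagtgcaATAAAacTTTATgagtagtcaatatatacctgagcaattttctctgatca
Alpi, minus strand, chr1:87101607-87101786: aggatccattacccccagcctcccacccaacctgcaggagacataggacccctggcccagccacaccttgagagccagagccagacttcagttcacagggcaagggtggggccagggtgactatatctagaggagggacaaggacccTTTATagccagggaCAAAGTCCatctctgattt
Akp3, plus strand, chr1:87124774-87124953: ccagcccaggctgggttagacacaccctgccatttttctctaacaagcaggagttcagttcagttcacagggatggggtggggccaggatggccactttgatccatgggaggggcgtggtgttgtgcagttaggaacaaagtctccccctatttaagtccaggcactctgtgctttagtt

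In the 250 bases upstream of *Lct* there were 3 GATA and 2 CDX matches, and a GATA match overlaps a CDX match. *Sis* held 4 CDX matches and 1 HNF1 match in that window, and *Alpi* held 1 CDX and 1 HNF4 match. *Akp3* and *Anpep* held none of these letters there. Short motifs are common. The CDX letters occurred upstream of 37.3% of the 32851 promoters in the table, the GATA letters upstream of 22.6%, the HNF1 letters upstream of 6.43% and the HNF4 letters upstream of 1.20%. *Treh*, with 2 HNF4 matches, was the other hydrolase gene to hold that motif. Among the 9 hydrolase genes with a promoter in the table, *Anpep* had 23 CG dinucleotides in this window and the others had 0 to 6, where the median of all promoters was 6. *Mep1b* had no entry. These are letter matches, and no binding was measured.

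**Figure D1:**
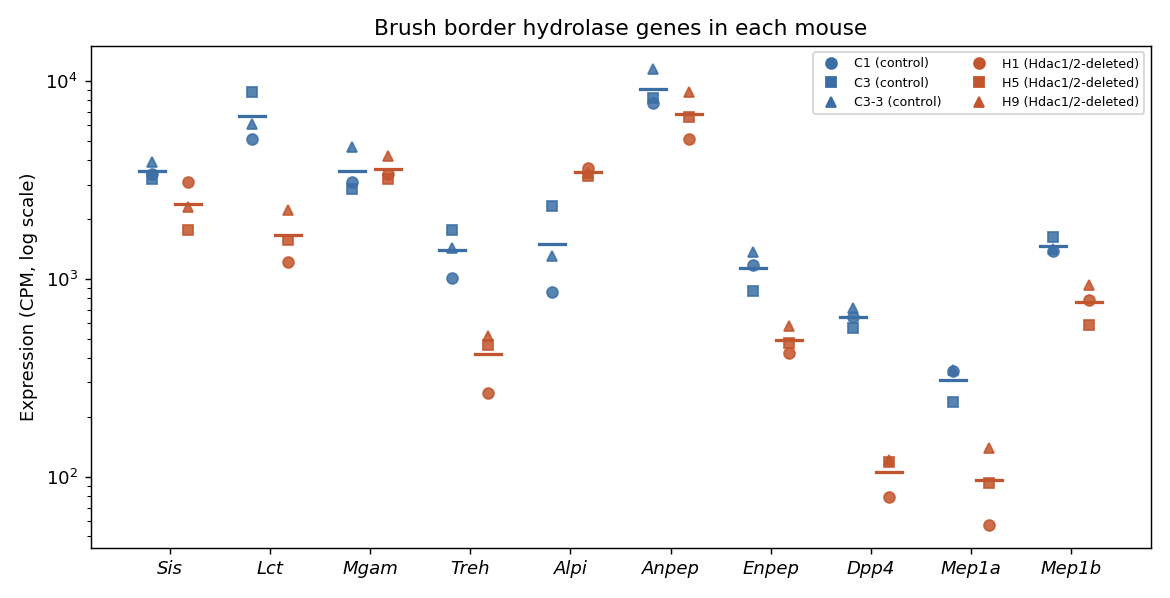
Expression of the 10 hydrolase genes in each mouse, as TMM-scaled CPM on a log axis, with 1 symbol per mouse and a bar at the mean of each group (n = 3). The groups are apart and lower in Hdac1/2-deleted IEC for *Sis*, *Lct*, *Treh*, *Enpep*, *Dpp4*, *Mep1a* and *Mep1b*, apart and higher for *Alpi*, and overlap for *Mgam* and *Anpep*.

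Of the 10 hydrolase genes, 5 were called lower in Hdac1/2-deleted IEC (*Dpp4*, *Lct*, *Treh*, *Mep1a* and *Enpep*), 1 was called higher (*Alpi*) and 4 were not called (*Sis*, *Mgam*, *Anpep* and *Mep1b*). A call needed a change of at least 2-fold and an adjusted p of at most 0.05 in the quasi-likelihood test of edgeR, adjusted by Benjamini-Hochberg over the 15618 genes tested. All 10 passed the filter on low counts. Over all genes tested, 12.7% were called lower and 12.4% higher, 25.2% in all, so the share of hydrolase genes called lower lay above the background and the share of 1 in 10 called higher lay near it. The median log2 fold change of the 10 genes was -1.07, against -0.01 over all genes tested. The values of the groups did not overlap and were lower for 7 of the 10 genes, where 26.6% of all genes showed this pattern, and were higher for 1, where 26.7% did. Since the RNA came from a mixture of cells, fewer cells of a type and less RNA per cell cannot be told apart.

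The scaling sets the centre of these changes. Over all genes, 1944 were called higher and 1990 lower with TMM, 2463 and 1538 with library totals alone, and 3418 and 1154 when the libraries were scaled to *Epcam*, *Cdh1*, *Cldn7* and *Vil1*. The median of all genes moved to 0.18 and 0.42 on the log2 scale with the last 2 scalings. The called hydrolase genes kept their direction under each of the 3, and *Enpep* lost its call, at a log2 fold change of -0.78, under the epithelial scaling.

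**Figure D2:**
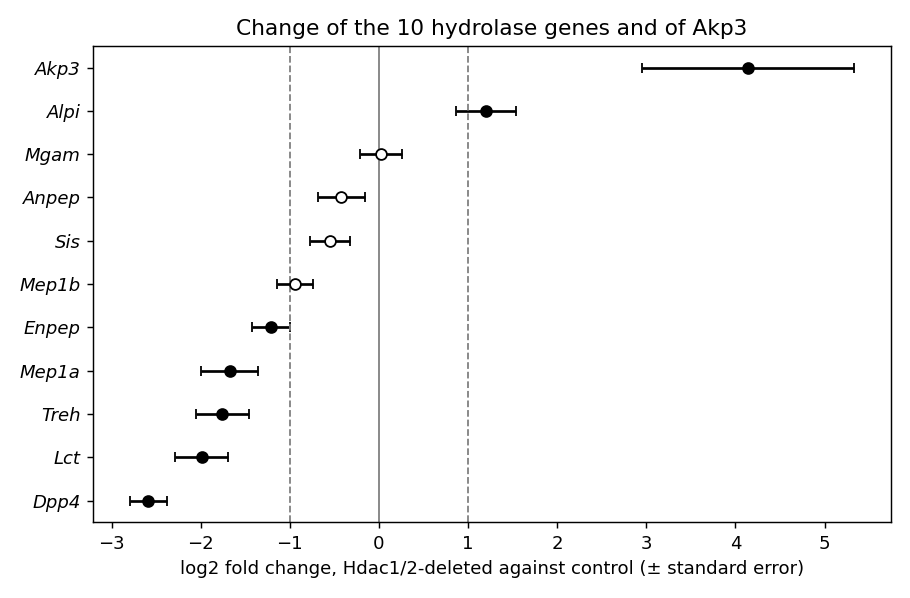
Log2 fold change of the 10 hydrolase genes and of *Akp3*, Hdac1/2-deleted against control, with its standard error (n = 3 mice per group). Filled points were called, and the dashed lines mark a 2-fold change. The values run from -2.59 for *Dpp4* to 1.20 for *Alpi* and 4.14 for *Akp3*.

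Among the disaccharidases, lactase and trehalase transcripts were lower in Hdac1/2-deleted IEC, while sucrase-isomaltase did not pass the test and maltase-glucoamylase lay within the spread of the mice. *Lct* encodes lactase, which splits milk sugar, and lies on the minus strand of chromosome 1 from 128284756 to 128328318. *Lct* was at 5067, 8820 and 6046 CPM in C1, C3 and C3-3 and at 1225, 1572 and 2231 CPM in H1, H5 and H9. The groups did not overlap, and C3 was the highest. *Lct* had a log2 fold change of -1.99 ± 0.30 (SE), 3.96-fold lower, with an adjusted p of 0.00087 in the edgeR test, and without C3 the log2 fold change was -1.72.

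Trehalase, the product of *Treh*, splits trehalose, a sugar of fungi and insects. The gene lies on chromosome 9 from 44673233 to 44686305 on the plus strand, where it overlaps *Phldb1*. *Treh* was at 1009, 1776 and 1428 CPM in the control mice and at 266, 465 and 516 CPM in H1, H5 and H9. The groups were apart, and as for *Lct* the order of the control mice was C3, C3-3 and C1. *Treh* differed by a log2 fold change of -1.76 ± 0.29 (SE), 3.38-fold lower, with an adjusted p of 0.0017 in the edgeR test.

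*Sis* encodes sucrase-isomaltase, which handles sucrose and the branch points of starch, and lies on chromosome 3 from 72888557 to 72967863. *Sis* was at 3387, 3194 and 3904 CPM in C1, C3 and C3-3 and at 3086, 1776 and 2308 CPM in H1, H5 and H9. The groups did not overlap, but the highest Hdac1/2-deleted mouse, H1, nearly reached the lowest control mouse, C3. *Sis* differed by a log2 fold change of -0.55 ± 0.23 (SE) and did not pass, with an adjusted p of 0.086 in the edgeR test. Its adjusted p ranged from 0.042 to 0.74 over the other tests, filters and scalings and from 0.025 to 0.26 with 1 mouse left out, and none of these gave a 2-fold change.

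*Mgam* encodes maltase-glucoamylase, which releases glucose from starch fragments, and lies on chromosome 6 from 40628831 to 40769123. *Mgam* was at 3077, 2845 and 4653 CPM in C1, C3 and C3-3 and at 3372, 3205 and 4183 CPM in H1, H5 and H9. All 3 Hdac1/2-deleted mice fell inside the control range. Its log2 fold change was 0.03 ± 0.24 (SE, adjusted p of 0.94, edgeR), which ran from -0.10 to 0.29 when 1 mouse was left out.

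Because all hydrolases share the epithelial content of a library, pairs of genes were also compared by their ratio within each mouse. There were 7 pairs, tested by a two-sided exact permutation test, for which 3 mice against 3 allow no p below 0.1. The *Lct* to *Sis* ratio of counts was 1.496, 2.76 and 1.55 in C1, C3 and C3-3 and 0.397, 0.885 and 0.967 in H1, H5 and H9. Lactase reads outnumbered sucrase-isomaltase reads in every control mouse and in none of the Hdac1/2-deleted mice. These are ratios of reads, and *Sis* has more annotated exon bases (7464) than *Lct* (6406). Per kilobase of exon *Lct* was above *Sis* in H5 (245 against 238) and H9 (348 against 309). It was below *Sis* in H1 (191 against 413). The log2 ratio differed by -1.41, with an exact p of 0.1 (0.14 after Benjamini-Hochberg adjustment over 7 pairs), the smallest the design can give. The *Treh* to *Sis* log2 ratio differed by -1.19 with the same p-values in the exact permutation test, and its groups were apart too. The *Mgam* to *Sis* log2 ratio differed by 0.63, with overlapping groups and an exact p of 0.2. Lactase and trehalase were thus lower against *Sis* in all 3 Hdac1/2-deleted mice, and maltase-glucoamylase was not.

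Intestinal alkaline phosphatase transcripts went the other way. *Alpi* encodes a brush border phosphatase that removes phosphate from lipids and from bacterial lipopolysaccharide, and lies on chromosome 1 from 87098002 to 87101606 on the minus strand. *Alpi* was at 855, 2350 and 1313 CPM in C1, C3 and C3-3 and at 3654, 3297 and 3449 CPM in H1, H5 and H9. The control mice spanned a 2.75-fold range and the Hdac1/2-deleted mice a 1.11-fold range, all of them above the highest control mouse. *Alpi* differed by a log2 fold change of 1.20 ± 0.33 (SE), 2.30-fold higher, with an adjusted p of 0.019 in the edgeR test. The call was sensitive to single mice. Without C1 the log2 fold change was 0.93 (adjusted p of 0.023, edgeR), and without C3-3, H1 or H5 the adjusted p was 0.061, 0.059 or 0.051.

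*Akp3*, a second intestinal alkaline phosphatase gene, lies on the plus strand of the same chromosome from 87124973 to 87127912. *Akp3* is not among the 10 genes and is given beside *Alpi* as its neighbour and paralog. *Akp3* was at 5.92, 152.4 and 49.7 CPM in C1, C3 and C3-3 and at 1449, 1249 and 980 CPM in H1, H5 and H9. The control mice differed among themselves by 25.8-fold and lay in the same order as for *Alpi*, and all Hdac1/2-deleted mice were above them. *Akp3* had a log2 fold change of 4.14 ± 1.19 (SE), with an adjusted p of 0.042 in the edgeR test. Leaving out C3-3, H1, H5 or H9 raised its adjusted p above the threshold, to at most 0.11, while the log2 fold change stayed between 3.61 and 5.47 for every mouse left out. Library C3, the one with 3082 Y-linked counts, held the highest control value of both genes, and without it the log2 fold change was 1.68 for *Alpi* and 5.47 for *Akp3*.

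**Figure D3:**
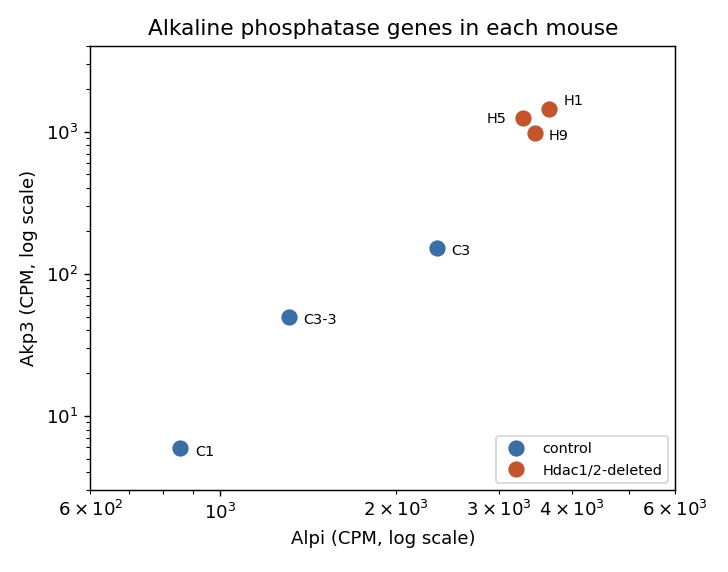
*Akp3* against *Alpi* expression in each mouse, in TMM-scaled CPM on log axes, 1 point per mouse. The 3 Hdac1/2-deleted mice lie together at 980 CPM of *Akp3* or more, and the 3 control mice are spread from 5.92 to 152.4 CPM.

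*Alpi* and *Akp3* together came to 861, 2502 and 1363 CPM in the control mice and to 5104, 4546 and 4429 CPM in the Hdac1/2-deleted mice. *Akp3* made up 0.687%, 6.09% and 3.65% of this sum in C1, C3 and C3-3 and 28.4%, 27.5% and 22.1% in H1, H5 and H9. Both the sum and the share of *Akp3* were higher in every Hdac1/2-deleted mouse than in any control mouse. The *Alpi* to *Akp3* ratio of counts was 144, 15.4 and 26.4 in the control mice and 2.52, 2.64 and 3.52 in the Hdac1/2-deleted mice, a log2 difference of -3.76 with an exact permutation p of 0.1, adjusted 0.14. *Alppl2*, a further phosphatase gene of the same family named after its values were seen, was at 1.03 to 3.71 CPM in control and 7.63 to 15.5 CPM in Hdac1/2-deleted IEC. It differed by a log2 fold change of 2.42 ± 0.54 (SE), with an adjusted p of 0.0086 in the edgeR test.

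Among the exopeptidases, *Dpp4* and *Enpep* transcripts were lower and *Anpep* did not pass the test. *Dpp4* encodes dipeptidyl peptidase 4, which removes dipeptides that end in proline or alanine and inactivates incretin hormones, and lies on chromosome 2 from 62330073 to 62412231. *Dpp4* was at 643, 564 and 713 CPM in C1, C3 and C3-3 and at 79.0, 118 and 122 CPM in H1, H5 and H9. The lowest control mouse exceeded the highest Hdac1/2-deleted mouse by far. With a log2 fold change of -2.59 ± 0.21 (SE), 6.02-fold lower, and an adjusted p of 3.7e-05 in the edgeR test, *Dpp4* had the largest change of the 10 genes. Its log2 fold change was between -2.69 and -2.41 when any mouse was left out.

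DPP4 is also found on T cells, which can sit between IEC. The 9 T cell and intraepithelial lymphocyte markers summed to 155 to 592 CPM in control and 81.8 to 183 CPM in Hdac1/2-deleted IEC. These ranges overlap. Of the 9, 2 were called lower, where 12.7% of all genes were, or 0 to 8 when 1 mouse was left out. All 9 markers had a negative log2 fold change, with a median of -1.30. Their part in the *Dpp4* result was not tested.

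*Enpep* encodes glutamyl aminopeptidase, which removes acidic residues from the start of peptides, angiotensin among them, and lies on chromosome 3 from 129269175 to 129332720. *Enpep* was at 1170, 870 and 1367 CPM in the control mice and at 423, 473 and 575 CPM in the Hdac1/2-deleted mice, without overlap. *Enpep* had a log2 fold change of -1.21 ± 0.21 (SE), 2.32-fold lower, with an adjusted p of 0.0019 in the edgeR test. *Anpep* encodes aminopeptidase N, a broad neutral aminopeptidase, and lies on chromosome 7 from 79821803 to 79861059. *Anpep* was at 7709, 8205 and 11534 CPM in C1, C3 and C3-3 and at 5106, 6617 and 8775 CPM in H1, H5 and H9. H9 was above 2 of the control mice, and the log2 fold change of -0.42 ± 0.26 (SE) did not pass (adjusted p of 0.23, edgeR).

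Set against *Anpep* in the same mouse, both other exopeptidases were lower. The *Dpp4* to *Anpep* ratio of counts was 0.0834, 0.0687 and 0.0618 in the control mice and 0.0155, 0.0179 and 0.0139 in the Hdac1/2-deleted mice, a log2 difference of -2.18 with an exact permutation p of 0.1, adjusted 0.14. The log2 difference for *Enpep* to *Anpep* was -0.77 with the same exact p, and neither ratio overlapped between the groups.

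The meprins are metalloendopeptidases, and *Mep1a* and *Mep1b* encode their alpha and beta subunits. *Mep1a*, on chromosome 17 from 43474324 to 43502812, was at 345, 238 and 345 CPM in C1, C3 and C3-3 and at 57.2, 93.7 and 140.2 CPM in H1, H5 and H9. The groups were apart, with the 3 Hdac1/2-deleted mice themselves spread more than 2-fold. *Mep1a* had a log2 fold change of -1.67 ± 0.32 (SE), 3.19-fold lower, with an adjusted p of 0.0040 in the edgeR test. *Mep1b*, on chromosome 18 from 21061923 to 21100199, was at 1381, 1622 and 1412 CPM in the control mice and at 787, 586 and 931 CPM in the Hdac1/2-deleted mice. *Mep1b* passed the adjusted p limit (0.0055, edgeR) at a log2 fold change of -0.94 ± 0.20 (SE), but its change of 1.92-fold was below the 2-fold limit. Without H9 its log2 fold change was -1.09, and it was then called. The *Mep1b* to *Mep1a* ratio of counts was 4.01, 6.81 and 4.09 in control and 13.7, 6.26 and 6.65 in Hdac1/2-deleted IEC. These ranges overlap (exact permutation p of 0.3), so a difference between the subunits was not shown.

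The levels of different genes can be set side by side only per length, as CPM per kilobase of annotated exon (mean ± SD, n = 3 mice). In control IEC *Anpep* was the highest, at 2213 ± 503, rank 20 among the 19526 genes with a length. *Lct* came next at 1037 ± 304, then *Treh* at 686 ± 188, *Alpi* at 644 ± 328 and *Mep1b* at 561 ± 50.0. *Sis* at 468 ± 49.2 and *Mgam* at 405 ± 113 followed, above *Enpep* at 241 ± 53.2, *Dpp4* at 101 ± 11.8 and *Mep1a* at 89.6 ± 17.8. Within that order the mice separated *Anpep* from *Lct*, *Mep1b* from *Sis*, *Mgam* from *Enpep* and *Enpep* from *Dpp4*, and the other neighbours overlapped.

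In Hdac1/2-deleted IEC the order was different. *Anpep* at 1652 ± 446 per kilobase and *Alpi* at 1483 ± 76.8 led and overlapped with each other. *Alpi* rose from rank 74 to rank 23 among all genes with a length, whereas *Lct*, at 262 ± 79.7, went from rank 46 to 187. The mean of *Lct* fell behind those of *Mgam* and *Sis*, but within single mice *Lct* was below *Sis* in H1 only. *Dpp4*, at 16.8 ± 3.76, went from rank 576 to 2699 and had the lowest mean, but overlapped with *Mep1a* at 28.1 ± 12.0. *Mgam*, *Sis*, *Mep1b*, *Lct* and *Treh*, at 412 to 203 per kilobase, formed a run in which each neighbour overlapped the next.

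Summed over the 10 genes, expression was 24643, 30485 and 32715 CPM in C1, C3 and C3-3 and 18057, 18203 and 23229 CPM in H1, H5 and H9. With TMM all Hdac1/2-deleted mice were below all control mice in this sum. It made up 2.48% to 3.00% of the counts in control and 1.91% to 2.37% in Hdac1/2-deleted IEC. The sum was not formed under the epithelial scaling, so the separation of the groups is not shown for it. That scaling gave log2 fold changes of -0.003 for *Anpep*, -0.10 for *Sis*, 0.46 for *Mgam* and -1.60 for *Lct*. The 4 disaccharidases summed to 15069 ± 2211 and 8068 ± 1114 CPM (SD, n = 3). The share of *Lct* in the sum of 10 was 18.5% to 28.9% in control and 6.78% to 9.60% in Hdac1/2-deleted IEC. The share of *Alpi* was 3.47% to 7.71% and 14.8% to 20.2%, and that of *Mgam* was 9.33% to 14.2% and 17.6% to 18.7%. *Anpep* held 26.9% to 35.3% and 28.3% to 37.8%, and was the largest contributor in every mouse except C3, in which *Lct* was larger. Shares of a sum depend on one another, so a gene can gain share without a change in its own level.

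**Figure D4:**
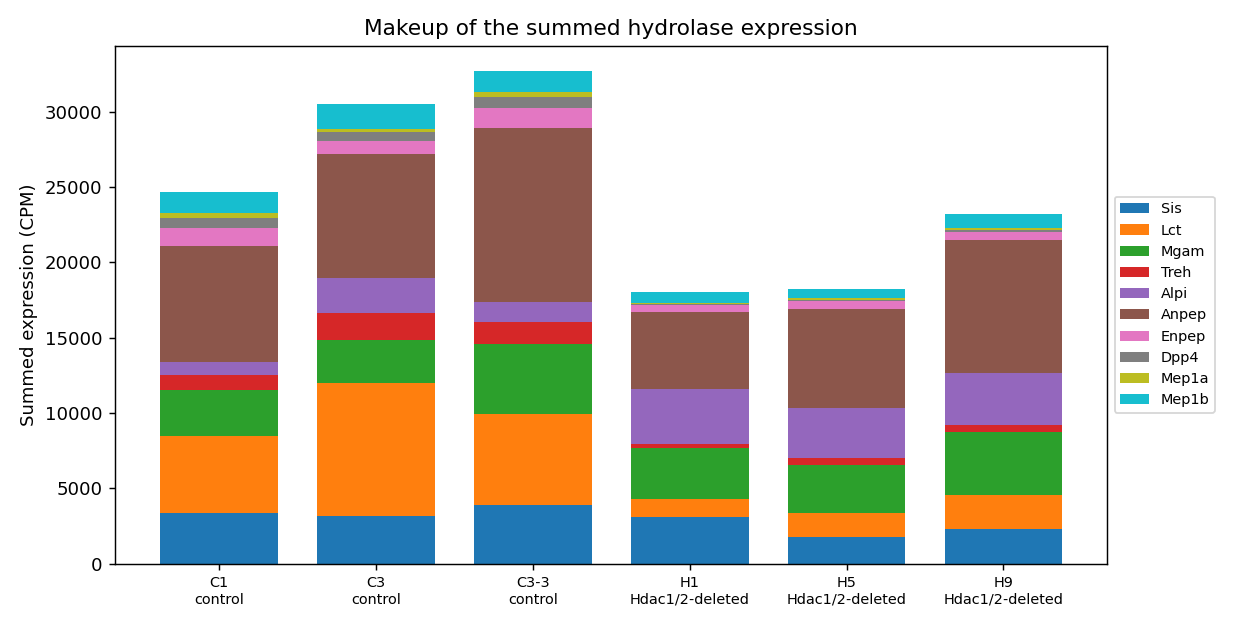
Stacked CPM of the 10 hydrolase genes in each mouse, in the order of the legend from the bottom. The bars reach 24643 to 32715 CPM in the 3 control mice and 18057 to 23229 CPM in the 3 Hdac1/2-deleted mice, with a smaller *Lct* band and a larger *Alpi* band in the latter.

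Further genes of the brush border and of digestion were followed as lists. Of 14 other brush border hydrolases tested, 7 were called lower and 1, *Akp3*, higher, against the same background of 12.7% and 12.4%, and their median log2 fold change was -1.15. *Ace*, the angiotensin-converting enzyme, which also trims dipeptides, was at 4367 ± 734 CPM in control and 569 ± 189 CPM after deletion (SD, n = 3), a log2 fold change of -2.94. *Enpp7*, the alkaline sphingomyelinase, was at 313 and 59.5 CPM on average (log2 fold change of -2.40), and *Asah2*, the neutral ceramidase that acts after it, at 920 and 227 CPM (-2.02). Also called lower were the peptidase genes *Mme* and *Ggt1* and the phosphodiesterase gene *Enpp3*, at log2 fold changes from -1.28 to -1.12. With the libraries scaled to the 4 epithelial genes 3 of the 14 were called lower, and *Akp3* had a log2 fold change of 4.55 with an adjusted p of 0.058 in the edgeR test. Without a filter on low counts *Akp3* was at 4.15 with an adjusted p of 0.068, so its call was lost in both settings at an equally large change.

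**Figure D5:**
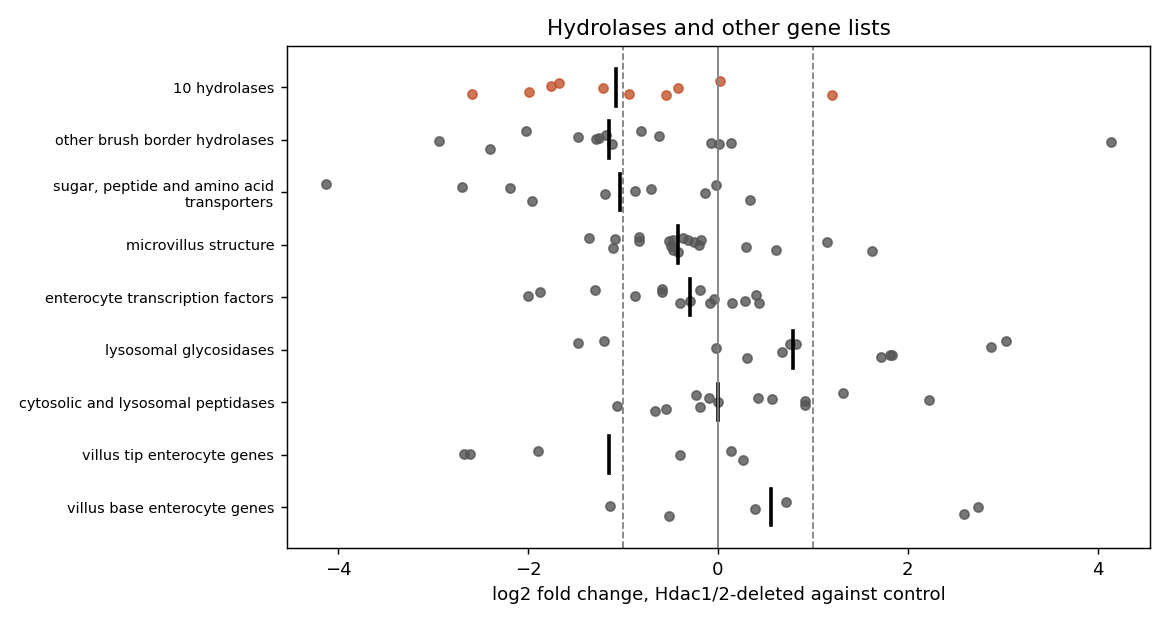
Log2 fold change, Hdac1/2-deleted against control, of each tested gene in the 10 hydrolases and in 8 other lists, 1 point per gene, with a bar at the median of the list. Dashed lines mark a 2-fold change. The medians are -1.07 for the 10 hydrolases, -1.15 for the other brush border hydrolases, -1.03 for the transporters and 0.79 for the lysosomal glycosidases.

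The transporters that take up the products of digestion gave 4 of 10 called lower, with the other 6 not called and a median log2 fold change of -1.03. These were *Slc1a1*, an acidic amino acid transporter (-4.13), *Slc15a1*, the peptide transporter PEPT1 (-2.69), and the neutral amino acid and imino acid transporter genes *Slc6a20a* (-2.19) and *Slc6a19* (-1.96). Over all genes 12.7% were called lower. Of the 6 not called, the glucose transporter gene *Slc2a2* (-0.87, adjusted p of 0.033, edgeR) and the amino acid transporter gene *Slc7a9* (-0.70, adjusted p of 0.0030, edgeR) were below the 2-fold limit without overlap between the groups, and the amino acid transporter gene *Slc3a1* was at 0.34 (adjusted p of 0.15, edgeR). *Slc5a1*, the sodium-dependent glucose transporter SGLT1, was at 3215, 2733 and 5112 CPM in C1, C3 and C3-3 and at 3713, 2988 and 4218 CPM in H1, H5 and H9, a log2 fold change of -0.02 ± 0.26 (SE, adjusted p of 0.96, edgeR) whose sign was positive with library totals or epithelial scaling. The mouse with the highest *Slc5a1* in each group, C3-3 and H9, also had the highest *Mgam* and *Anpep*.

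The scaffold under the brush border membrane gave counts near those over all genes, of which 12.7% were called lower and 12.4% higher. Of 19 genes of microvillus structure, 3 were called lower, *Cobl* (-1.35), *Pdzk1* (-1.10) and *Cdhr2* (-1.08), and 2 higher, *Tmigd1* (1.62) and *Espn* (1.15), with a median log2 fold change of -0.42. With library totals 1 was called lower and with epithelial scaling 0. Leaving out H1 gave 1 called lower, and leaving out C1, C3, H1 or H9 gave 1 called higher. *Tmigd1* lost its call without C3, H1 or H9, with an adjusted p of up to 0.085 in the edgeR test. *Vil1*, which encodes villin and whose promoter drives the Cre, was at 4218 ± 716 CPM in control and 3048 ± 449 CPM in Hdac1/2-deleted IEC (log2 fold change of -0.47, adjusted p of 0.10, edgeR).

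Of 15 transcription factors of enterocytes, 3 were called lower and 12 not called, where 12.7% of all genes were called lower, and their median log2 fold change was -0.30. Among those called was *Prdm1*, which encodes Blimp1, a factor of the immature gut (-1.88). *Hnf4a*, a factor of mature enterocytes, was at 728 ± 43.7 and 593 ± 33.3 CPM (log2 fold change of -0.30, adjusted p of 0.13, edgeR, and 0.14 in log2 under epithelial scaling). *Cdx2*, a factor of intestinal identity, was at 157 ± 28.5 and 208 ± 20.6 CPM (0.41, adjusted p of 0.081, edgeR). Neither passed the test.

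Enzymes of related chemistry inside the cell were followed for comparison. Of 12 lysosomal glycosidases, 5 were called higher and 2 lower (12.4% and 12.7% of all genes), and the summed expression of the 12 was 915 to 1129 CPM in control and 1793 to 2015 CPM in Hdac1/2-deleted IEC. *Gaa*, the acid alpha-glucosidase, was at 34.9 ± 9.98 and 286 ± 55.9 CPM (log2 fold change of 3.04), and *Glb1*, the acid beta-galactosidase, at 33.8 ± 2.83 and 248 ± 80.0 CPM (2.88). *Gla* (1.83), *Neu1* (1.81) and *Gusb* were the others called higher, and *Galc* (-1.48) was among those called lower. Of 13 cytosolic and lysosomal peptidases, 2 were called higher, the cathepsin gene *Ctsl* (2.23) and *Dpp7* (1.32), and 1 lower, the prolidase gene *Pepd* (-1.06), counts near the share over all genes. The call of *Pepd* was lost at log2 fold changes of -0.87 with library totals, -0.64 with epithelial scaling and -0.94 without H1. No test compared these lists with the 10 hydrolases.

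Because hydrolase levels vary along the villus, genes known from the tip and from the base of the villus were followed too. Over all genes 12.7% were called lower and 12.4% higher. Of 6 tip genes, 3 were called lower, *Slc28a2*, a nucleoside transporter (-2.67), *Apoa4*, an apolipoprotein (-2.61), and *Ada*, adenosine deaminase (-1.89). The tip genes not called went in both directions, *Egfr* (0.26), *Nt5e* (0.14) and *Klf4* (-0.40). Of 6 base genes, 2 were called higher, the antimicrobial lectin genes *Reg3g* (2.74) and *Reg3b* (2.60), and 1 lower, *Nlrp6* (-1.13). The base genes not called were *Lypd8* (0.72, adjusted p of 0.010, edgeR), *Il18* (0.39) and *Ccl25* (-0.51). *Nlrp6* fell below the 2-fold limit with library totals (-0.94) and with epithelial scaling (-0.70). *Ada* lost its call with epithelial scaling (adjusted p of 0.11, edgeR) and without H5 (0.070) or H9 (0.077). The 7 enterocyte markers summed to 70674 to 77586 CPM in control and 22358 to 31925 CPM in Hdac1/2-deleted IEC, and 3 of them were called lower. Most of that sum was *Apoa4*, also one of the tip genes, at 38393 and 6283 CPM on average, and *Apoa1*, at 22706 and 13216 CPM. Called beside *Apoa4* were *Fabp2* (-2.13, adjusted p of 6.0e-05, edgeR) and *Slc15a1*. *Apoa1* (-0.78, adjusted p of 0.024, edgeR) and *Krt20* (-0.57, adjusted p of 0.032, edgeR) were below the 2-fold limit without overlap between the groups. *Fabp1* (-0.38, adjusted p of 0.15, edgeR) and *Slc5a1* in the same list did not pass the test. The part of villus position and of enterocyte content in the hydrolase results was not tested.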

How the data were processed

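The authors sequenced directional poly(A) libraries as paired reads of 100 bases and deposited raw counts of reads per gene for 6 jejunal IEC libraries, 3 per group. The submitters' processing notes list STAR 2.4.0f1, bcl2fastq 1.8.4 and the build mm9, whereas the study's methods give GRCm38. The counting program and annotation are not given in the sources used here. The deposited table also holds scaled counts, log2 values and p-values of the authors' own comparison, which were not used. Samples were grouped by genotype in the labels, which give no batch.

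Counts were filtered with filterByExpr (15618 of 19616 genes kept), normalized with TMM and fitted with edgeR 4.0.16 (limma 3.58.1, R 4.3.3), using robust quasi-likelihood tests without covariates (prior count of 0.125). The standard error is the log2 fold change divided by the square root of the F statistic. P-values were adjusted by Benjamini-Hochberg over all tested genes. CPM divides counts by the TMM-scaled library total. Levels per kilobase use merged exons of GENCODE M21 (GRCm38), found for 19526 genes and not for 90. Gene overlaps named in the text are from that annotation. Ratios of counts in a mouse, with 0.5 counts added, were compared by exact permutation. The depth of 36111035 to 65902344 counts leaves the spread between mice, and not counting error, as the main limit of precision for these genes. Each library is a separate mouse.

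The members, lists, pairs and alternatives were chosen with earlier results of these data known, so no list serves as independent support. Named outside the 10 hydrolases were up to 4 called genes with the largest change per list, plus *Akp3*, *Vil1*, *Hnf4a*, *Cdx2* and *Slc5a1*. *Alppl2*, *Mme*, *Ggt1*, *Enpp3*, *Gusb*, *Slc2a2*, *Slc7a9*, *Slc3a1* and the single cell type markers fall outside this rule and were named after their values were seen. The same holds for *Egfr*, *Nt5e*, *Klf4*, *Lypd8*, *Il18*, *Ccl25* and *Xist*. Some genes that the rule takes are not reported here. Also named, by the smallest root mean square difference of centred log2 CPM over 6 samples, were the 3 genes most like *Sis*, *Lct* and *Alpi* among 8330. Steps were tested on simulated data. Alternatives were DESeq2 1.42.0 size factors and Wald test, library totals, scaling to *Epcam*, *Cdh1*, *Cldn7* and *Vil1*, limma-voom, other filters and prior count, no 2-fold limit, and each mouse left out. Plots were drawn with matplotlib 3.10.9. The proteome and qPCR were not analysed here.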

Additional observations from a re-analysis of the deposited data

How the results depend on the processing

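Of the 10 hydrolase genes, 5 were called lower with TMM, 4 to 6 under the other settings and 5 to 6 when a mouse was left out. The number called higher was 0 to 1 when a mouse was left out (*Alpi*, with log2 fold changes of 0.93 to 1.68). *Lct*, *Treh*, *Dpp4* and *Mep1a* kept their call under every setting and every mouse left out. *Mep1b* had log2 fold changes of -1.09 to -0.77 with a mouse left out, and *Mgam* -0.10 to 0.29, changing sign. Scaling to the 4 epithelial genes gave *Enpep* -0.78 (adjusted p of 0.0033, edgeR), 3418 genes called higher and 1154 lower over all genes, and 12 in place of 24 pathway list genes called lower. Without the 2-fold limit 3198 genes were called higher and 3168 lower, and 19 in place of 12 pathway list genes higher. Signs changed for *Hdac2* (-0.18) to 0.0069 with library totals and 0.27 with epithelial scaling, for *Hnf4a* to 0.14 with epithelial scaling, and for *Slc5a1* to 0.17 with library totals, 0.42 with epithelial scaling, 0.010 with limma-voom and -0.19 to 0.30 with a mouse left out. The cause of these changes was not tested.

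No paired analysis was possible because the mouse names of the groups share 1 number only and the labels pair no mice. Groups of 3 mice limit every ratio test to an exact p of 0.1 or above.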

Other observations

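Among 8330 well expressed genes, those whose levels over the 6 mice lay closest to *Sis* were *Eapp*, *Zfand2b* and 1110059G10Rik, with root mean square differences of 0.050, 0.058 and 0.072 in centred log2 CPM. Closest to *Lct* were *Podn* (0.062), *Odf3b* (0.14) and *Cyp4f16* (0.15), which were themselves lower in Hdac1/2-deleted IEC, with log2 fold changes from -2.04 to -1.81. Closest to *Alpi* were *Pklr*, the pyruvate kinase gene of liver and red cells (0.13), *Trpm5*, a tuft cell channel gene (0.16), and *Nsdhl*, a gene of cholesterol synthesis (0.18). *Pklr* was at 391 and 882 CPM on average, a log2 fold change of 1.17 ± 0.25 (SE) with an adjusted p of 0.0058 in the edgeR test. *Trpm5* (1.38) went against the other tested tuft cell markers. *Dclk1* (log2 fold change of -4.40), *Avil* (-2.70) and *Pou2f3* (-1.55) were called lower. The 6 mice fall into 2 groups, and likeness over them is given as a description only.

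Markers of the remaining cell types are given beside the 12.7% of all genes called lower and 12.4% called higher. Of 6 goblet cell markers 3 were called lower (2 to 5 with 1 mouse left out, the 5 without H5, and 1 with epithelial scaling), of 5 Paneth cell markers 5, of 4 tested tuft cell markers 3 lower and 1 higher, of 5 crypt stem cell markers 2 lower, of 6 enteroendocrine markers 1 lower and 1 higher, and of 6 proliferation markers 0 in either direction (edgeR). DESeq2 and limma-voom called 0 of these 6 too, and 0 had an unadjusted p under 0.05 in the edgeR test. The 6 B and plasma cell markers, of which 4 were tested, summed to 6.25 to 62.6 CPM in control and 43.7 to 61.7 CPM in Hdac1/2-deleted IEC, the 6 myeloid markers to 11.3 to 19.99 and 19.7 to 36.3 CPM, the 6 stromal markers, of which 5 were tested, to 12.9 to 18.8 and 9.38 to 12.8 CPM, and the 4 endothelial markers, of which 3 were tested, to 1.62 to 2.78 and 1.86 to 3.46 CPM. Single markers were called in these lists. *Cd79b* was higher, at 1.15 and 32.7 CPM on average (log2 fold change of 4.84), in a list whose sum is otherwise mostly *Jchain*. *Csf1r* was higher (1.75) and *Dcn* lower (-1.48).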
